A study of Mus musculus with 30 samples.

Results

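Of the 13575 genes with values in 6 mouse heart RNA libraries, 359 are well expressed transcripts whose deposited names are placeholders. They were chosen by name and level alone: the deposited symbol is "Gm" with digits only, begins with RP23- or RP24-, or ends in "Rik", and the mean over the 6 libraries is at least 10 FPKM. FPKM is a count of mapped fragments corrected for the length of the transcript and the size of the library. Gm129, a clock repressor, was left out. Of the 359, 185 carried a Gm name, 174 a Rik name and none an RP name. Such names are carried by 1837 genes at any level, and 4523 genes of any name have a mean of at least 10.

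Gm symbols are given to predicted mouse gene models, and Rik symbols to genes first known from RIKEN cDNA clones, so a placeholder says how a gene was found and not what it does. Pseudogenes are copies of genes, often inserted back into the genome from an mRNA, and their close likeness to the parent gene means that reads can be assigned to either. Long noncoding RNAs are transcripts without a recognised protein, and some transcripts first filed as noncoding were later found to encode micropeptides. REV-ERBα and REV-ERBβ, the receptors deleted in this study, are circadian repressors that bind the ROR element, an A/T-rich stretch followed by AGGTCA, and recruit corepressors there.

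The series asks what the REV-ERB receptors do in the heart. CM-RevDKO and control libraries, 3 each, were compared, all from hearts of 2-month-old mice taken at ZT10, 10 hours after lights on by the usual meaning of zeitgeber time, with the atria trimmed away. The group labelled CM-RevDKO is a cardiomyocyte knockout of both receptors, and the other is labelled as the floxed control. The protocol for the chromatin samples of the series gives the genotypes as floxed alleles of Rev-erba and Rev-erbb on both chromosomes, with or without Cre driven by the alpha myosin heavy chain promoter, which is active in cardiomyocytes. If the RNA groups follow it, the effects of Cre and of the deletion cannot be told apart, and other heart cells keep both genes. Whether each library came from its own animal is not stated, so p-values measure the spread of these libraries, which may be technical. These are bulk samples, in which fewer cells of a type and less RNA per cell cannot be told apart.

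The targeted genes did not check the labels. The gene of REV-ERBα, Nr1d1, stood at 23.9, 22.6 and 15.0 FPKM in the control libraries and at 55.6, 47.4 and 47.9 FPKM in the CM-RevDKO libraries, a rise against the label's direction (log2 fold change 1.28, SE 0.17, limma adjusted p = 0.0124). Nr1d2, the gene of REV-ERBβ, had means of 35.7 and 27.4 FPKM and did not pass (adjusted p = 0.175). Values of a whole gene include exons outside the deleted part, so every direction below rests on the labels as given. The libraries summed to between 678722 and 712158 FPKM, and sequencing depth is unknown. Of 12 marker lists of heart cell types none held a gene past the test, all 10 cardiomyocyte markers were present, and none of the 3 T cell markers was in the table. Atrial markers summed to 210 to 285 FPKM in the control libraries and to 948, 374 and 421 FPKM in CM-RevDKO replicates 1, 2 and 3. The atrial gene Bmp10 was listed at 0 in 5 libraries and at 1.94 FPKM in CM-RevDKO replicate 1. Adipocyte markers summed to 13.9 to 22.6 FPKM in the control libraries and to 115, 70.0 and 20.0 FPKM in the same order, and the erythroid list to 5010 to 9005 FPKM against 8703 to 11003 FPKM.

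Of the 359 members, 350 were matched to RefSeq's annotation of GRCm38.p6, the build also called mm10. By that annotation 178 are protein-coding genes, 154 are pseudogenes, 18 are long noncoding RNAs and 9 were not matched. The Rik names were mostly protein-coding genes (162 of 174) with 11 long noncoding RNAs, and the Gm names mostly pseudogenes (154 of 185). Of the protein-coding members, 140 have another symbol in RefSeq, so the members are for the most part proteins under an older name and copies of other genes. In 75 members the gene overlaps another gene of the table, and without knowledge of the strand setting their reads can belong to either.

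The stretches before the start of 3 members are shown. Among the members past the test described below, these had the largest rises of a long noncoding RNA and of protein-coding members. They are RefSeq sequence of GRCm38.p6, the 250 bases before an annotated start, in the gene's direction. RefSeq gives Gm15417 a further start, whose upstream window (chr3:89394040-89394289) holds no ROR element and is not printed. Capitals mark the ROR element, and lower case the rest.
Gm15417 (chr3:89391614-89391863, plus strand): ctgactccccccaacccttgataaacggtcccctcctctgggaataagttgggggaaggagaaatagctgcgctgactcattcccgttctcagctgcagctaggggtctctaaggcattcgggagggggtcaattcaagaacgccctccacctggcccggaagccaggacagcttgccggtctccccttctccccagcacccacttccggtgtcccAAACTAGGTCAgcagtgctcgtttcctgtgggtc
Mrln (chr10:70204414-70204663, plus strand): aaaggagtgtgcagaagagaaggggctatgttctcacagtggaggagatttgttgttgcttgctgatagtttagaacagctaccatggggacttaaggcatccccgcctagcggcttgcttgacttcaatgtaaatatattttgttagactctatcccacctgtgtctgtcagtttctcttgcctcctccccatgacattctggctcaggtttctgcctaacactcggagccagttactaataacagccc
1110008P14Rik (chr2:32381916-32382165, minus strand): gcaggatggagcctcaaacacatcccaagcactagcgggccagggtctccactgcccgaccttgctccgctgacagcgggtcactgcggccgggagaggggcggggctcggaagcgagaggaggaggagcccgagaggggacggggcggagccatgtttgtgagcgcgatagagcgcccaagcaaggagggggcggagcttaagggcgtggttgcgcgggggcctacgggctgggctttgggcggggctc
The ROR element of Gm15417 lies 34 to 24 bases before the start of the printed window's transcript and reads AAACTAGGTCA. The search covered both strands of 300-base windows, 250 bases before to 50 bases after each start, and found the ROR element in 0.384% of 32851 windows of the RefSeq table. Of the 200 windows of 170 members, the printed one of Gm15417 was the only one with it. The core hexamer AGGTCA, which the ROR element contains, was in 16.3% of all windows and in 10.5% of the members' windows, Shld1 among them. The E-box CACGTG, bound by the activators of the clock, was in 7.15% of all windows and 9% of the members', and the D-box TTATGTAA in 0.938% and 1%. The windows of Mrln and 1110008P14Rik held none of these 4. A match is a description of letters and not a binding site, and no match says only that the letters are not in this window.

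In the CM-RevDKO hearts 7 members rose and 5 fell. The rises were led by Mrln, a micropeptide gene of the muscle calcium pump, and included the unnamed proteins 1110008P14Rik and 2310022B05Rik, the long noncoding RNA Gm15417, the pseudogene Gm7536, Tmem256 and Atp5mpl, a small subunit of ATP synthase. The falls were Shld1, Abhd18, Rmc1, Timm21 and Arel1. A gene passed where limma's moderated test on log2(FPKM + 1) gave a Benjamini-Hochberg adjusted p under 0.05, adjusted over all 13256 genes tested. The 12 calls are 3.34% of the members, against 2.5% of all genes tested, where 1.26% rose and 1.24% fell. Among the 4164 other genes that reach a mean of 10 the share was 4.35%, so the members' share lay between both backgrounds. All 359 passed the filter on low values, but 32 reached a mean of 10 in the CM-RevDKO group only and 9 in the control group only. Mrln is among the former, and Shld1, Rmc1 and Arel1 are among the latter. Such genes had to differ to be members, so these counts describe the set and support nothing about it.

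**Figure D1:**
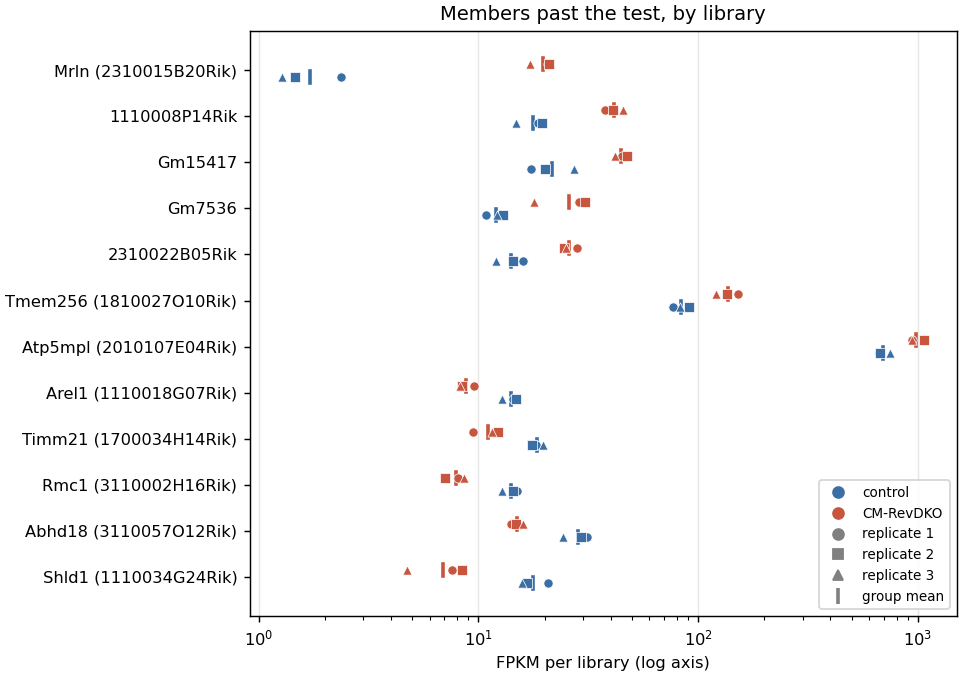
FPKM in each library (log axis) of the 12 members past the test, control libraries in blue and CM-RevDKO libraries in red, with the marker shape giving the replicate and a bar the group mean. In none of the 12 do the libraries of the 2 groups overlap, and Mrln shows the widest gap, from 1.28 to 2.37 FPKM in the controls to 17.1 to 21.1 FPKM. The 12 were chosen by a test on these same libraries, so the lack of overlap adds no support.

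Mrln, deposited as 2310015B20Rik (chr10:70204664-70219711), encodes myoregulin, a micropeptide known from skeletal muscle that binds and inhibits the calcium pump SERCA of the sarcoplasmic reticulum. It stood at 2.37, 1.47 and 1.28 FPKM in the control libraries and at 20.8, 21.1 and 17.1 FPKM in the CM-RevDKO libraries. All 3 CM-RevDKO libraries lay far above every control. The atrial marker sum was also above every control in all 3 CM-RevDKO libraries, the adipocyte sum in replicates 1 and 2 and the erythroid sum in replicate 1. The ratio of the means was 11.5, and the log2 fold change 2.95 (SE 0.17, adjusted p = 3.80e-04). Mrln passed in all 15 alternative settings, with log2 fold changes of 2.76 to 3.49 and an adjusted p of at most 0.0416. The nearest gene of the table, Ccdc6, 11464 bases away, had means of 4.66 and 4.36 FPKM and did not pass (adjusted p = 0.831).

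SERCA and its better known heart inhibitors, looked up after the value of Mrln was seen, did not pass the test. Atp2a2, the cardiac SERCA pump, had means of 1694 ± 57.7 FPKM in the control libraries and 1313 ± 54.4 FPKM in the CM-RevDKO libraries (SD, n = 3, limma adjusted p = 0.0673). Pln, phospholamban, the main SERCA inhibitor of the ventricle, had 2207 ± 50.4 and 1578 ± 177 FPKM (SD, n = 3, limma adjusted p = 0.0598). Sln, sarcolipin, the inhibitor typical of the atrium, stood at 18.1, 8.23 and 25.8 FPKM and at 146, 52.7 and 46.8 FPKM (adjusted p = 0.0892). In none of these 3 genes did the libraries of the groups overlap. Lack of overlap was found in 23.1% of all genes tested and in 31.5% of the other genes with a mean of at least 10. The 3 were looked up after Mrln was seen, so this count describes them only. The level of Mrln in the CM-RevDKO hearts was thus near 20 FPKM beside a Pln level of 1578 FPKM, both being values per transcript length.

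1110008P14Rik (chr2:32379101-32381915) is a protein-coding gene with no functional name in the RefSeq table. Its values were 18.7, 19.5 and 14.9 FPKM in the control libraries and 37.5, 40.9 and 45.7 FPKM in the CM-RevDKO libraries. All CM-RevDKO libraries lay far above the controls, and the means differed 2.34-fold (log2 fold change 1.19, SE 0.13, adjusted p = 0.00472). No single library ended the call when left out (adjusted p 0.0121 to 0.0288). It ended in 2 of 15 alternatives, both chosen after seeing the data: with CM-RevDKO replicate 3 alone against the controls (adjusted p = 0.0891) and with atrial transcripts as a covariate (adjusted p = 0.0636). Ciz1, 788 bases away, had means of 9.49 and 8.98 FPKM and did not pass.

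Gm15417 (chr3:89391864-89398779) is a long noncoding RNA, with the ROR element printed above before the first of its 2 annotated starts. It stood at 17.3, 20.2 and 27.3 FPKM in the control libraries and at 45.0, 47.2 and 41.7 FPKM in the CM-RevDKO libraries. The highest control lay well below the lowest CM-RevDKO library, and the log2 fold change was 1.04 (SE 0.16, adjusted p = 0.0205). The gene overlaps Zbtb7b (chr3:89377644-89393673), which encodes a zinc finger transcription factor known from T cell development. Zbtb7b had means of 7.05 ± 0.458 and 10.6 ± 1.07 FPKM (SD, n = 3) and a log2 fold change of 0.53 that missed the threshold (limma adjusted p = 0.0534), and reads of the shared stretch can belong to either gene. The call of Gm15417 ended without CM-RevDKO replicate 1 (adjusted p = 0.0581) or 2 (0.0843) and without control replicate 1 (0.0688) or 2 (0.0837).

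2310022B05Rik (chr8:124635756-124663369) is the other unnamed protein that rose. It stood at 16.0, 14.3 and 12.0 FPKM in the control libraries and at 28.1, 24.6 and 25.1 FPKM in the CM-RevDKO libraries (log2 fold change 0.84, SE 0.12, adjusted p = 0.0160). The groups were separated by more than the range within either. Its call ended without CM-RevDKO replicate 2 (adjusted p = 0.0587) and without control replicate 2 (0.0630) or 3 (0.0544).

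Tmem256, deposited as 1810027O10Rik (chr11:69838525-69839558), encodes a small membrane protein. It stood at 76.5, 91.1 and 83.0 FPKM in the control libraries and at 152, 135 and 120 FPKM in the CM-RevDKO libraries (log2 fold change 0.69, SE 0.12, adjusted p = 0.0284). All CM-RevDKO libraries were higher, but the call held only without CM-RevDKO replicate 3 (adjusted p = 0.0272) when a library was left out, and ended without each of the other 5 (0.0609 to 0.116). Gm7536 (chr3:24333044-24333553), a pseudogene, stood at 10.8, 13.0 and 12.2 FPKM and at 28.7, 30.6 and 17.9 FPKM (log2 fold change 1.01, SE 0.20, adjusted p = 0.0462). CM-RevDKO replicate 3 was the nearest of its group to the controls, and the call likewise held only without it (adjusted p = 0.00917) and ended without each of the other 5 libraries (0.119 to 0.162).

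The 5 members that fell encode proteins with separate roles. Shld1, deposited as 1110034G24Rik (chr2:132686931-132751055), is a subunit of shieldin, which protects broken DNA ends from resection, and stood at 20.8, 16.7 and 15.7 FPKM in the control libraries and at 7.57, 8.47 and 4.71 FPKM in the CM-RevDKO libraries. It fell by 1.27 on the log2 scale (SE 0.20, adjusted p = 0.0234), the largest fall among the members past the test. Gm14097, which lies within Shld1, fell with it, from a mean of 4.99 to 1.61 FPKM (adjusted p = 0.0410), so the 2 values may share reads. The call of Shld1 ended without control replicate 1, 2 or 3 (adjusted p = 0.103, 0.0801 and 0.0712).

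Abhd18, deposited as 3110057O12Rik (chr3:40871095-40938138), encodes a protein with a hydrolase fold. It stood at 31.2, 29.5 and 24.3 FPKM in the control libraries and at 14.1, 14.8 and 15.9 FPKM in the CM-RevDKO libraries (log2 fold change -0.87, SE 0.12, adjusted p = 0.0113). The CM-RevDKO libraries lay close together and well below each control. The call ended without CM-RevDKO replicate 2 (adjusted p = 0.0561) and without control replicate 1 (0.0565) or 2 (0.0541).

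Rmc1, deposited as 3110002H16Rik (chr18:12168689-12198675), is a subunit of the complex that activates the late endosomal GTPase Rab7. It stood at 14.9, 14.4 and 12.8 FPKM in the control libraries and at 8.11, 7.05 and 8.59 FPKM in the CM-RevDKO libraries (log2 fold change -0.76, SE 0.11, adjusted p = 0.0158). It overlaps Npc1, the lysosomal cholesterol exporter, which fell as well, from 9.19 ± 2.05 to 3.93 ± 0.621 FPKM (SD, n = 3, log2 fold change -1.04, limma adjusted p = 0.0236). Both genes of the late endosome were thus lower, and the division of reads over their overlap is not known. The call of Rmc1 ended without control replicate 1 (0.0788) or 2 (0.0699) and without CM-RevDKO replicate 2 (0.0676).

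Timm21, deposited as 1700034H14Rik (chr18:84946191-84951530), is a subunit of the inner membrane translocase that brings proteins into mitochondria. It stood at 18.3, 17.5 and 19.6 FPKM in the control libraries and at 9.48, 12.3 and 11.6 FPKM in the CM-RevDKO libraries (log2 fold change -0.69, SE 0.12, adjusted p = 0.0287). Arel1, deposited as 1110018G07Rik (chr12:84918140-84970878), is a ubiquitin ligase that restrains apoptosis, and stood at 14.4, 14.9 and 12.8 FPKM against 9.56, 8.43 and 8.25 FPKM (log2 fold change -0.62, SE 0.10, adjusted p = 0.0275). Neither gene had an overlap between groups. With fewer libraries Timm21 lost its call without each of the 6 in turn (adjusted p 0.0505 to 0.112), and Arel1 kept it only without CM-RevDKO replicate 1 (adjusted p = 0.0393, otherwise 0.0623 to 0.112).

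Of the nearest or overlapping genes not yet named, 6430590A07Rik, which overlaps Abhd18, had means of 0.611 and 1.05 FPKM and did not pass (adjusted p = 0.512). Nor did Ttc13, Nlgn2, Cyb5, Fcf1 and Ppp1r13b, beside 2310022B05Rik, Tmem256, Timm21, Arel1 and Atp5mpl (adjusted p 0.197 to 0.905). Gm10259, beside Gm7536, lay below the filter on low values.

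Several of these calls therefore rest on having all 6 libraries. Without control replicate 2 the count of members past the test was 2, Mrln and 1110008P14Rik, and 21 passed without CM-RevDKO replicate 3, 9 of them among the 12. Without control replicate 1 it was 3, without control replicate 3 it was 5, without CM-RevDKO replicate 2 it was 4 and without CM-RevDKO replicate 1 it was 8. With atrial transcripts as a covariate, chosen after seeing the data, 1 member of 359 and 30 of all genes passed. That member was Mrln (log2 fold change 2.83, adjusted p = 0.0271). The covariate was made of Myl7, Myl4 and Sln, each higher in every CM-RevDKO library than in any control. This fit can therefore not tell atrial content and group apart. All of the 12 kept their direction in it. The log2 fold change of 1110008P14Rik was 1.40 against 1.19 in the main fit, and that of Timm21 -0.51 against -0.69. The part of the adipocyte and erythroid differences in any call was not tested.

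**Figure D2:**
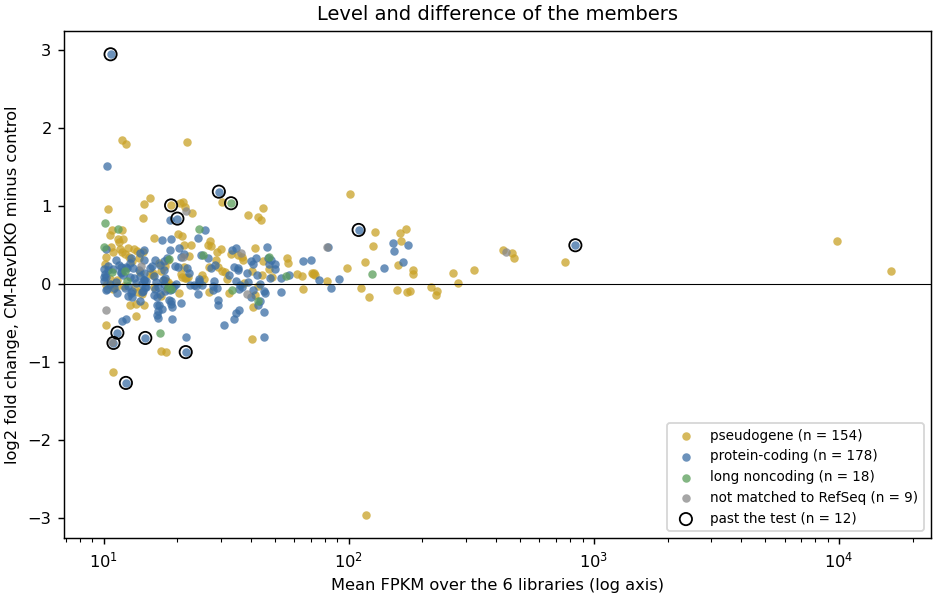
Log2 fold change (CM-RevDKO minus control, on log2(FPKM + 1)) against mean FPKM over the 6 libraries (log axis) for the 359 members, coloured by RefSeq class, with black rings around the 12 past the test. Most rings surround protein-coding members (10 of 12), while the widest differences not past the test include pseudogenes such as Gm12537 at -2.96.

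Of the 178 protein-coding members, 56 were placed in 6 groups by role, made after their names and values were known. The other 122, among them Abhd18, Tmem256, 1110008P14Rik and 2310022B05Rik, were not grouped. The 16 placed as subunits and assembly factors of the respiratory chain and ATP synthase included 1 rise, Atp5mpl, and no fall. Of the 178 protein-coding members 5.62% passed, and of all genes tested 2.5%. The 16 were picked by hand and may leave out members of this role, so their median and counts describe these 16 only. The median log2 fold change of the 16 was 0.27, against 0.02 over all genes tested and 0.06 over the 178 protein-coding members. Of the 16, 14 had a positive log2 fold change, and in 8, all higher in CM-RevDKO, the libraries of the groups were apart. Groups without overlap were found in 23.1% of all genes tested, in 28.4% of the members, in 38.2% of the protein-coding members (68 of 178) and in 31.5% of the other genes with a mean of at least 10.

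Atp5mpl, deposited as 2010107E04Rik (chr12:111961374-111967009), a small proteolipid of the ATP synthase membrane part, was the most abundant protein-coding member. It stood at 667, 673 and 751 FPKM in the control libraries and at 942, 1072 and 941 FPKM in the CM-RevDKO libraries (log2 fold change 0.50, SE 0.09, adjusted p = 0.0424). The groups did not overlap, and the ratio of the means was 1.41. The call ended without each library in turn (adjusted p 0.0562 to 0.163), after quantile normalization (0.145) and with libraries scaled without mitochondrially encoded genes (0.121).

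Next to it stood the assembly factors of cytochrome c oxidase, the terminal complex of the respiratory chain. Pet100 was at 12.4, 14.2 and 12.5 FPKM in the control libraries and at 31.7, 22.4 and 18.8 FPKM in the CM-RevDKO libraries, without passing (log2 fold change 0.82, SE 0.18, adjusted p = 0.0697). Cox14 was at 137, 149 and 145 FPKM and at 212, 231 and 171 FPKM (0.50, SE 0.12, adjusted p = 0.0921). Both had all CM-RevDKO libraries above all controls, with replicate 3 the lowest of the 3. Cmc2 had means of 14.9 and 22.9 FPKM (adjusted p = 0.163) and Coa6 of 21.7 and 28.2 FPKM (adjusted p = 0.157). Other members of the group had small values: Coa5 and Coa8, of the same complex, had log2 fold changes of 0.05 and 0.00, Timmdc1 and Ndufaf6, of complex I assembly, -0.01 and -0.09, and Smim4, of complex III assembly, 0.04.

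**Figure D3:**
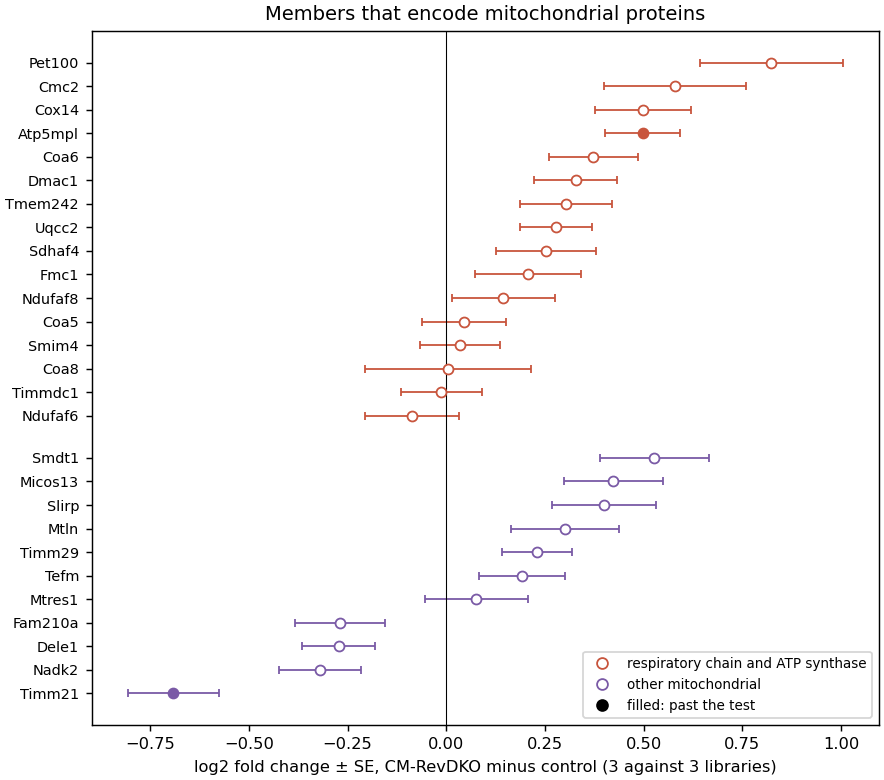
Log2 fold change (CM-RevDKO minus control) with its standard error for the 27 members placed in the mitochondrial role groups. The 16 of the respiratory chain and ATP synthase are in red and the 11 others in purple, with filled points past the test. The red points reach from -0.09 (Ndufaf6) to 0.82 (Pet100), and the purple ones from -0.69 (Timm21) to 0.53 (Smdt1).

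The 11 members placed as other mitochondrial proteins moved both ways, with 1 fall, Timm21, and no rise. Of all protein-coding members 5.62% passed, and of all genes tested 2.5%. In 9 of them the groups did not overlap, 5 higher and 4 lower, where the share was 23.1% of all genes tested and 38.2% of the protein-coding members. The role group was made after values were seen, so this count describes it only. Among those higher without passing, Smdt1, the EMRE subunit of the mitochondrial calcium uniporter, stood at 120, 127 and 123 FPKM in the control libraries and at 194, 203 and 143 FPKM in the CM-RevDKO libraries (log2 fold change 0.53, SE 0.14, adjusted p = 0.106). Micos13, of the complex that shapes the cristae, had means of 130 and 176 FPKM (adjusted p = 0.149), and Slirp, which stabilises mitochondrial mRNAs, of 12.0 and 16.1 FPKM (adjusted p = 0.187). Mtln, another micropeptide, of the mitochondrial inner membrane, had 35.3 and 44.3 FPKM (adjusted p = 0.328). On the lower side, Nadk2, the mitochondrial NAD kinase, had means of 19.4 and 15.3 FPKM (adjusted p = 0.178), and Dele1, which relays mitochondrial stress to the cytosol, of 46.8 and 38.5 FPKM (adjusted p = 0.200).

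The 3 muscle proteins differed in direction. Beside Mrln, Perm1, a regulator of mitochondrial and contractile genes in muscle, stood at 47.6, 63.9 and 55.4 FPKM in the control libraries and at 25.9, 36.2 and 42.9 FPKM in the CM-RevDKO libraries. Every CM-RevDKO library was below every control, but the log2 fold change of -0.67 (SE 0.19) did not pass (adjusted p = 0.133). Mlip, which binds lamins in muscle, had means of 42.3 and 37.7 FPKM (adjusted p = 0.431).

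In the remaining role groups, 1 member each had passed, all lower. Calls made up 5.62% of the protein-coding members and 2.5% of all genes tested. These groups too were made after values were seen, so the counts describe them only. Among the 7 members of lysosome, endosome and autophagy, Rmc1 was the one past the test, and the Ragulator subunits Lamtor1 and Lamtor4 had log2 fold changes of -0.10 and 0.31. Among the 12 of chromatin, RNA and DNA repair, Shld1 was the one, and the others lay between -0.17 (Kansl3) and 0.18 (Kansl2). Among the 7 regulators of the clock, stress and protein degradation, Arel1 was the one. Cipc, which binds and inhibits CLOCK, stood at 12.9, 15.5 and 14.5 FPKM in the control libraries and at 11.8, 14.5 and 16.8 FPKM in the CM-RevDKO libraries, with overlapping groups (adjusted p = 0.994) at this single time of day.

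Of the 18 long noncoding members, 1 rose, Gm15417, and none fell. That is 5.56%, against 2.5% of all genes tested and 4.35% of the other genes with a mean of at least 10. Their median log2 fold change was 0.16 (13 positive, 5 negative), where 7112 of all 13256 genes tested were positive. In 5 (27.8%) the groups did not overlap, a share between the 23.1% of all genes tested and the 31.5% of the other genes at this level. D830050J10Rik stood at 6.98, 8.16 and 6.24 FPKM in the control libraries and at 17.0, 10.6 and 11.8 FPKM in the CM-RevDKO libraries, all higher, without passing (log2 fold change 0.78, SE 0.18, adjusted p = 0.0759). 9330158H04Rik, at 18.9, 22.8 and 14.0 against 37.3, 26.7 and 27.9 FPKM, was also higher in all 3 (adjusted p = 0.127). Both overlap another gene of the table, as do 11 of the 18.

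Better known long noncoding RNAs were read from a list of 51, of which 27 were in the table and 3 are members under older names. Of the 27, 1 rose and none fell, where 2.5% of all genes tested passed. The unadjusted limma p was under 0.05 in 8 of the 27, and in 2206 of the 13256 genes tested. The groups did not overlap in 8 of the 27, and in 23.1% of all genes tested. Over the 27 the median log2 fold change was -0.08, with 13 positive and 14 negative. The rise was Snhg15, a host gene of a small nucleolar RNA deposited as Gm11974, at 1.84, 1.84 and 1.87 FPKM in the control libraries and at 3.92, 5.14 and 5.45 FPKM in the CM-RevDKO libraries (log2 fold change 1.02, SE 0.13, adjusted p = 0.0106). The 3 members did not pass: Oip5os1, also called Cyrano, had means of 53.8 and 57.6 FPKM (adjusted p = 0.651), Zfas1 of 10.2 and 11.5 FPKM (adjusted p = 0.520) and Snhg20 of 11.7 and 12.8 FPKM (adjusted p = 0.770). Malat1, the most abundant of the list, stood at 476, 474 and 455 FPKM in the control libraries and at 174, 243 and 549 FPKM in the CM-RevDKO libraries. CM-RevDKO replicate 3 lay above the controls and the others below, so the log2 fold change of -0.71 had an SE of 0.37 (adjusted p = 0.385). Neat1 stood at 43.8, 39.0 and 38.2 FPKM and at 22.4, 35.3 and 29.8 FPKM (adjusted p = 0.198). Gas5, with means of 38.6 ± 2.73 and 47.8 ± 8.67 FPKM (SD, n = 3), did not pass either (limma adjusted p = 0.344).

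The 154 pseudogene members held 1 rise, Gm7536, and no fall, 0.649% of the class. The share was 2.5% over all genes tested and 4.35% over the other genes with a mean of at least 10. Of them 116 had a positive and 38 a negative log2 fold change, with a median of 0.20, and in 28 (18.2%) the groups did not overlap. Lack of overlap was found in 23.1% of all genes tested and in 31.5% of the other genes with a mean of at least 10. Their spread was wide: the median SD within groups was 0.30 on the log2(FPKM + 1) scale, against 0.14 for the protein-coding members, 0.25 for the long noncoding ones and 0.14 for the other genes with a mean of at least 10. In 38.3% of the pseudogenes replicates of a group differed by more than 1 on that scale, against 5.06% of the protein-coding members. They are also short, with a median gene length of 776 bases against 11213, and how far length or shared reads go with the spread was not tested.

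**Figure D4:**
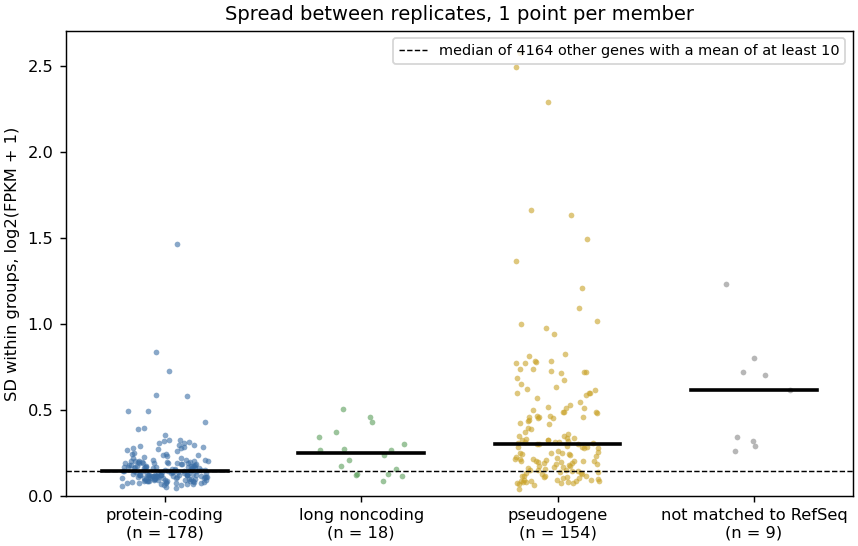
SD within groups of log2(FPKM + 1), 1 point per member by RefSeq class, with black bars at the class medians and a dashed line at the median of the 4164 other genes with a mean of at least 10. The pseudogenes (median 0.30) and the 9 members not matched to RefSeq (0.61) lie above the protein-coding members (0.14).

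Some pseudogenes were present in some libraries and near absent in others of the same group. Gm12537 stood at 159, 176 and 165 FPKM in the control libraries and at 1.08, 181 and 25.3 FPKM in the CM-RevDKO libraries, the most negative log2 fold change of the members (-2.96, SE 1.37, adjusted p = 0.336). Gm10774 stood at 14.7, 0.0928 and 0.0966 FPKM and at 35.0, 21.6 and 0.0929 FPKM (adjusted p = 0.585). Gm5641 was listed at 0 in control replicate 2 and in CM-RevDKO replicate 1 and stood at 18.2 to 27.2 FPKM in the other 4, and Gm8355 was listed at 0 in CM-RevDKO replicate 3 and at 7.42 to 20.7 FPKM in the other 5. Gm12231, a copy of an ATP synthase subunit gene, stood at 16.1 to 21.9 FPKM in the control libraries and at 36.7, 16.0 and 0.752 FPKM in the CM-RevDKO libraries. In these genes the groups cross, and a listed 0 may be an estimate that failed.

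Other wide differences also missed the test. On the higher side, Gm13436 stood at 3.94, 11.1 and 0.589 FPKM in the control libraries and at 40.4, 6.73 and 11.4 FPKM in the CM-RevDKO libraries (adjusted p = 0.330). Gm15459 stood at 137, 70.1 and 15.3 FPKM and at 162, 151 and 71.6 FPKM (adjusted p = 0.476). The protein-coding Gm1987 was listed at 0 in control replicate 3 and stood at 7.52 to 14.4 FPKM in the other 5 libraries. On the lower side, Gm4149 had means of 22.2 and 12.2 FPKM with overlapping groups (adjusted p = 0.502). The unmatched Gm10942 had 16.7, 12.8 and 11.7 FPKM in the control libraries all above 5.87, 9.73 and 7.93 FPKM (adjusted p = 0.104).

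Where the RefSeq name gives the parent gene, the copy can be set beside it. For 23 pseudogenes with a tested parent, the log2 fold changes of copy and parent had the same sign in 17, and the copy spread more between replicates in 16. Since 16 of the copies and 20 of the parents had a positive log2 fold change, the shared signs say little about a link between them. The median log2 fold change was 0.22 for the copies and 0.13 for the parents. Gm14337, a copy of the ATP synthase gene Atp5k, stood at 4.58, 11.0 and 6.51 FPKM in the control libraries and at 78.3, 15.4 and 15.9 FPKM in the CM-RevDKO libraries (adjusted p = 0.187), without overlap and with replicate 1 far above the rest, while Atp5k had means of 693 and 1095 FPKM (adjusted p = 0.134). In 2 pairs the copy was listed above its parent: Gm3452, a copy of the mitochondrial pyruvate carrier gene deposited as Brp44l, had means of 416 and 529 FPKM against 78.8 and 111 FPKM. Gm15920, a copy of Ndufa12, had 266 and 292 FPKM against 137 and 194 FPKM, and its own libraries ran from 126 to 420 FPKM.

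The most abundant members were Gm10925 and Gm10222, neighbouring pseudogenes (chr1:24613971-24614651 and chr1:24612404-24612700). This stretch of chromosome 1 is known as a nuclear copy of mitochondrial DNA. Together they held 3.29% to 4.67% of a library's summed FPKM, where all 359 members held 5.43% to 7.08%. Gm10925 stood at 14396, 15384 and 16439 FPKM in the control libraries and at 17028, 18890 and 15898 FPKM in the CM-RevDKO libraries (adjusted p = 0.472). Gm10222 stood at 7903, 7234 and 8515 FPKM and at 13052, 13917 and 8490 FPKM, so CM-RevDKO replicates 1 and 2 were high and replicate 3 like the controls (adjusted p = 0.194). The mitochondrial gene mt-Atp8, looked up after these values were seen, was also high in CM-RevDKO replicates 1 and 2, at 8032, 9148 and 9375 FPKM and at 18989, 19303 and 9769 FPKM (adjusted p = 0.175), while mt-Atp6 had means of 4826 and 4500 FPKM.

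The rest of the 10 most abundant members were, after Atp5mpl, 6 further pseudogenes, Gm10039, Gm3452, Gm16418, Gm12338, Gm10221 and Gm15920, and the unmatched Gm13341. None of them passed. Gm10039 had 690 ± 30.2 FPKM in the control libraries and 836 ± 35.4 FPKM in the CM-RevDKO libraries (SD, n = 3, limma adjusted p = 0.147), with no overlap. Gm13341 ran from 217 to 939 FPKM within the CM-RevDKO group alone.

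A single library was the highest for most pseudogenes. CM-RevDKO replicate 1 had the top value of the 6 libraries in 87 of the 154 pseudogenes (56.5%), in 33.1% of the protein-coding members and in 33.7% of the other genes with a mean of at least 10. The median pseudogene stood 0.44 above the control mean in that library on the log2 scale, 0.08 in replicate 2 and 0.15 in replicate 3. Without that library the median log2 fold change over all 359 members went from 0.13 to 0.09, and over all genes from 0.0184 to -0.0042. This is also the library with the highest atrial, adipocyte and erythroid sums given above. It had the highest macrophage sum (231 FPKM against 132 to 166 in the other 5), mesothelial sum (7.44 against 0.900 to 3.77), endothelial sum (259 against 205 to 237) and mural sum (243 against 183 to 233) as well. Its cardiomyocyte sum (39829 FPKM, with 42655 in CM-RevDKO replicate 3) and fibroblast sum (585, with 597 in control replicate 1) were not the highest. Nor were its B cell and Schwann cell sums. The part of any of these cell types in the pattern was not tested.

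**Figure D5:**
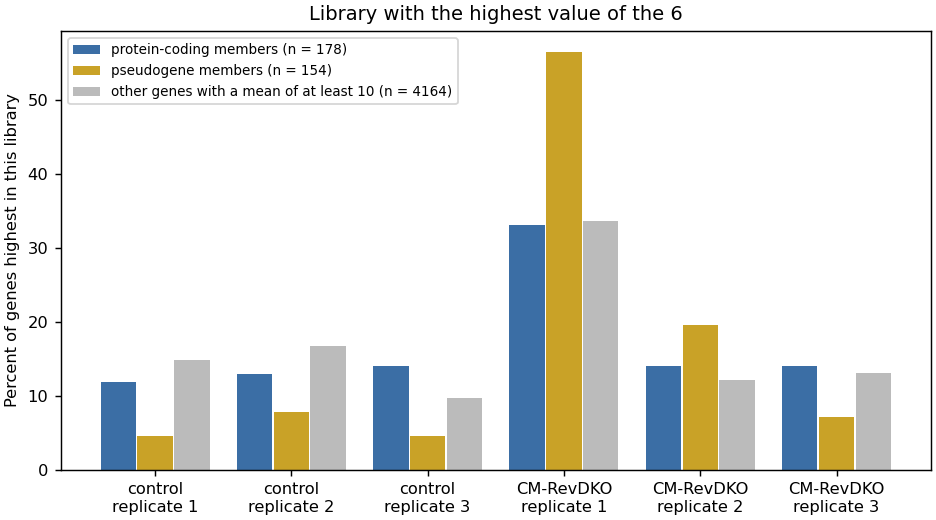
Percent of genes for which each of the 6 libraries holds the highest value, for the 178 protein-coding members, the 154 pseudogene members and the 4164 other genes whose mean reaches 10 FPKM. CM-RevDKO replicate 1 holds the highest value for 56.5% of the pseudogenes, and each control library for at most 7.79%.

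Near the threshold of 10 FPKM the choice is narrow. Just above lay 1110051M20Rik, B230312A22Rik and 4921524J17Rik, each with a mean of 10.0 FPKM, and just below C130074G19Rik at 9.97 and Gm15118 and Gm8116 at 9.95 FPKM.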

How the data were processed

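Heart RNA from 6 libraries was analysed. The other 24 of the 30 samples, from chromatin assays, were not analysed here. The submitters' processing notes name HISAT2, StringTie and mm10, without versions. The strand setting and annotation used are not known. The authors deposited 1 value per gene and library, read here as FPKM because StringTie reports it; the file header names no unit, and TPM could not be told apart. Depth is unknown, so no counting interval is given.

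Values were tested as log2(FPKM + 1) with limma 3.58.1 in R 4.3.3 (lmFit, eBayes with trend, group as the only term) over the 13256 of 13575 genes with a mean of at least 0.5, and p-values were adjusted by Benjamini-Hochberg over all of them, threshold 0.05. Fold changes of low genes are therefore understated. All adjusted p-values in the text come from limma. Tested on simulated data for this comparison (13256 genes, 200 changed, 5 simulations), the procedure found 73.8% of genes shifted by 1 and 96.2% of genes shifted by 2 (log2), with 4.23% false calls. The simulated noise was independent between genes, with no difference between libraries shared by many genes. Only genes with a mean log2(FPKM + 1) above 2 were shifted, and shifts under 1 were not simulated. These percentages may therefore not hold for the real libraries.

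Members and gene lists were chosen with earlier results of these data known. Members were matched to RefSeq's GRCm38.p6 table by deposited symbol (175), by the current symbol of the gene ID (152) or by synonym (23). Named by rule were members past the test, the 10 with the highest mean, the 5 largest and 5 most negative fold changes not past it, the 4 with the widest range between replicates, the 3 on each side of the threshold, the neighbours of called members, and of the list of noncoding RNAs those past the test or its 3 highest. Others, with the role groups, were chosen after their values were seen. Alternatives were a pseudocount of 0.1, no filter, a filter at 5, quantile normalization, scaling without mitochondrially encoded genes, a replicate block, each library left out and 3 settings added after seeing the data.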

Additional observations from a re-analysis of the deposited data

How the results depend on the processing

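Against 12 members past the test (7 higher, 5 lower) and 332 genes in all, the replicate number as a block left 4 members (3 higher, 1 lower), 115 genes in all and 0 of the list of long noncoding RNAs. The labels' numbers were not taken to pair the libraries, since the deviations of same-numbered libraries correlated at -0.04, -0.06 and 0.09. With each library left out in turn, 2 to 21 members passed, 2 to 17 of them higher and 0 to 4 lower, with 120 to 322 genes in all and 0 to 3 of the list. Of settings added after seeing the data, CM-RevDKO replicate 3 alone against the controls left 3 members (1 higher, 2 lower), 21 genes in all and 0 of the list, its lone library being assumed to vary like the controls. Leaving out both control replicate 2 and CM-RevDKO replicate 1, there were 3 (3 higher, 0 lower) and 105. With atrial transcripts as a covariate there were 1 (1 higher, 0 lower), 30 in all and 0 of the list. The filter at 5 left 0 of the list, as Snhg15 lies below it. Scaled without mitochondrially encoded genes, 118 genes rose and 212 fell (5 and 6 members), and after quantile normalization 141 and 175 (6 and 5), against 167 and 165.

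Log2 fold changes were compared between settings for 32 members, the 12 past the test among them. Of these 32, directions reversed in 6 pseudogenes and 1 unmatched member, none past the test. Reversals among the other members were not counted. Gm15920 went from 0.02 to -0.0875 with quantile normalization, -0.0535 scaled without mitochondrially encoded genes, -1.01 with CM-RevDKO replicate 3 alone, -0.53 with the atrial covariate, and -0.44 with control replicate 2 and CM-RevDKO replicate 1 both left out.  With the covariate Gm13341 stood at -0.60, Gm12537 at 0.99 and Gm10774 at -0.50, and Gm10774 at -1.28 with CM-RevDKO replicate 3 alone. With each library left out in turn, log2 fold changes ran from -0.33 to 0.53 for Gm15920, -0.13 to 0.93 for Gm13341, -2.08 to 0.14 for Gm8355, -1.80 to 0.42 for Gm12231 and -1.29 to 1.68 for Gm5641. The causes were not tested.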
